A study of Drosophila melanogaster with 18 samples.

Results

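The 8 genes described here are the heat-inducible Hsp70 family of Drosophila melanogaster, made up of Hsp70Aa, Hsp70Ab, Hsp70Ba, Hsp70Bb, Hsp70Bbb, Hsp70Bc and the related Hsp68, together with Hsp83, the fly's cytosolic Hsp90. They were taken by gene symbol from the 17972 genes of the Illumina table, and by the same gene identifiers from the 13969 genes of the Nanopore table. All 8 were found in both. RNA of whole adult flies from 3 genotypes was sequenced on the 2 platforms, with 3 libraries for each genotype on each platform and 18 in all. Each library came from a pool of about 70 flies kept at 25 °C in 12 h of light and 12 h of darkness and collected 3 h after lights on. No heat treatment is named in the labels. Every genotype carried the GR23E10-gal4 driver, which produces the yeast activator Gal4 under a fly enhancer. The driver control carried nothing further, dec2WT flies also carried UAS-dec2WT, and dec2P384R flies also carried UAS-dec2P384R, a form of the transcriptional repressor Dec2 known from people who sleep little. This driver is known for labelling a small set of sleep-promoting neurons, so the transgene is expected in few cells while the RNA is that of the whole body. In such bulk RNA, fewer cells of a type and less RNA per cell cannot be told apart.

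Hsp70 proteins bind unfolded stretches of other proteins and release them in cycles driven by ATP, J-domain proteins and nucleotide exchange factors. Hsp90 proteins act later, on partly folded clients such as kinases and receptors. In Drosophila the Hsp70 copies are nearly silent in unstressed flies and are switched on within minutes of heat or other protein damage by the heat shock factor Hsf, acting on polymerases already paused at their promoters. Hsp68 is a heat-inducible relative with its own promoter. Hsp83 is already abundant without stress and rises further with heat, and the constitutive Hsc70 proteins do the everyday work of the Hsp70 machine.

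The genes lie in 4 places on chromosome 3. Positions are those deposited with the Illumina values, and all 8 were identical in Ensembl BDGP6.54. Hsp83 (FBgn0001233) lies on the plus strand at 3L:3192969-3197059 and has 2 annotated transcripts of 2 exons each, with a coding sequence of 2151 bases. Hsp68 (FBgn0001230) is a single-exon gene on the minus strand at 3R:24055080-24057310, with a coding sequence of 1905 bases. Hsp70Aa (FBgn0013275, minus strand, 3R:11954163-11956544) and Hsp70Ab (FBgn0013276, plus strand, 3R:11958535-11960909) stand head to head with 1990 bases between them. Hsp70Ba (FBgn0013277, minus strand, 3R:12465453-12467776) lies in the second Hsp70 locus, followed on the plus strand by Hsp70Bbb (FBgn0051354, 3R:12502510-12504856), Hsp70Bb (FBgn0013278, 3R:12505793-12508139) and Hsp70Bc (FBgn0013279, 3R:12509076-12511461). Each Hsp70 copy is 1 exon with 1 annotated transcript. The coding sequence is 1926 bases in Hsp70Aa and Hsp70Ab and 1923 bases in each of the other 4. The copies are nearly identical in sequence, so reads can be assigned to the wrong copy or dropped, and the value of any single copy is uncertain. For that reason the sum of the 6 copies was also analysed as if it were 1 gene.

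Libraries held 18057117 to 28293197 reads on genes by Illumina and 1922380 to 4659601 estimated counts by Nanopore. By the labels, replicates are biologically independent, and the labels do not say whether the 2 platforms used the same RNA. They give no sex or age. Summed levels of a fixed marker list were 1937 to 2855 FPKM for 8 testis genes and 988 to 1643 FPKM for 8 accessory gland genes, both male organs. The 17 genes of the list for ovary and egg, a tissue known to be rich in Hsp83 RNA, summed to 12.0 to 20.1 FPKM, with Cp38 and Vm26Aa at 0 in all 9 Illumina libraries. One library per platform stood apart in the inducible genes. These were dec2P384R replicate 1 by Illumina and driver control replicate 3 by Nanopore. The library of the same genotype and number on the other platform was not high in either case. The main comparisons are given with and without them.

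Hsp83 was the most abundant of the 8 genes and varied little by Illumina. There its level was 266, 342 and 395 FPKM in driver control replicates 1 to 3. It was 276, 289 and 370 FPKM in dec2WT and 307, 275 and 381 FPKM in dec2P384R. FPKM scales the fragments of a gene by its length and by the size of the library. The third replicate was the highest of each genotype, and the 3 genotypes overlapped over nearly their whole range. The means were 334 ± 64.8 FPKM in the driver control, 312 ± 50.6 FPKM in dec2WT and 321 ± 54.7 FPKM in dec2P384R (SD, n = 3 each). By Nanopore, in CPM (counts scaled to a common library total), the driver control stood at 575, 482 and 1092. The dec2WT libraries stood at 659, 518 and 373 CPM and the dec2P384R libraries at 629, 439 and 456 CPM. Here driver control replicate 3 was the highest library, at 2.18 times the median of the other 8, and the remaining 8 libraries lay between 373 and 659 CPM.

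Hsp68 was nearly constant in all Illumina libraries but 1. It stood at 19.4, 17.98 and 20.2 FPKM in the driver control and at 18.7, 20.8 and 20.3 FPKM in dec2WT. In dec2P384R it was 44.9, 18.9 and 20.3 FPKM. Replicate 1 of dec2P384R thus held 2352 reads against 780 to 1100 in each other library and was 2.26 times the median of the other 8, while replicates 2 and 3 lay within the range of the 6 libraries of the other genotypes. By Nanopore the driver control libraries had 44.5, 32.5 and 132 CPM of Hsp68. Those of dec2WT had 29.6, 40.9 and 27.5 CPM, and those of dec2P384R 22.4, 26.2 and 33.9 CPM. Driver control replicate 3 was 4.25 times the median of the other 8 libraries, which reached at most 44.5 CPM.

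The 6 Hsp70 copies were close to silent in 8 of the 9 Illumina libraries. Their summed level was 1.22, 1.89 and 1.71 FPKM in the driver control, from 62, 122 and 90 reads. It was 2.01, 0.810 and 1.35 FPKM in dec2WT, from 121, 37 and 68 reads, and 12.5, 1.24 and 1.07 FPKM in dec2P384R, from 692, 54 and 47 reads. Replicate 1 of dec2P384R was 9.64 times the median of the other 8, and replicates 2 and 3 of that genotype overlapped both other genotypes. Every one of the 6 copies had its highest Illumina level in that library. Hsp70Bb, Hsp70Bbb and Hsp70Bc reached 3.61, 3.26 and 3.21 FPKM there, against at most 0.792, 0.534 and 0.608 FPKM elsewhere. Hsp70Ab reached 1.45 FPKM against at most 0.430 FPKM. Hsp70Ba and Hsp70Aa stayed low at 0.549 and 0.393 FPKM, from 30 and 22 reads, and the latter had no read in dec2P384R replicate 3, where a count of 0 allows up to 3 counts. Counting error alone is large at such depths.

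**Figure D1:**
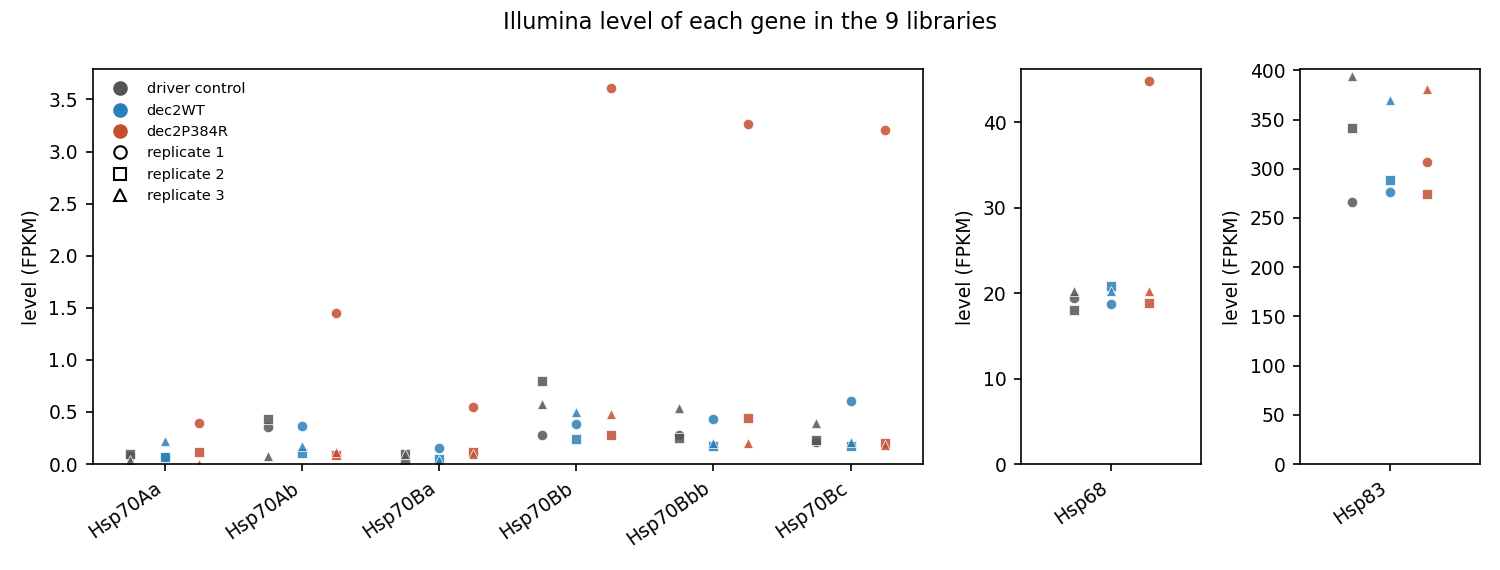
Illumina level in FPKM (linear axes, separate for the 3 panels) of the 6 Hsp70 copies, Hsp68 and Hsp83, with 1 point for each library, colour for genotype and shape for replicate. The circle of dec2P384R replicate 1 lies above all other points for each Hsp70 copy and for Hsp68 (44.9 FPKM) but within the others for Hsp83 (307 FPKM).

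Ordered by the median over the 9 Illumina libraries, Hsp83 (307 FPKM) was followed by Hsp68 (20.2 FPKM) and then by Hsp70Bb (0.479 FPKM), and the ranges of these 3 genes did not overlap. Below it came Hsp70Bbb at 0.277, Hsp70Bc at 0.216, Hsp70Ab at 0.178, Hsp70Ba at 0.0941 and Hsp70Aa at 0.0781 FPKM. The ranges of neighbouring Hsp70 copies overlapped, and with shared reads their order is uncertain. The constitutive Hsc70-4, the main cytosolic Hsp70 of unstressed cells, stood at 1025 to 1188 FPKM in the same libraries.

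By Nanopore the same 6 copies ranged far more widely. Their sum was 59.7, 12.2 and 1207 CPM in the driver control, from 248, 44.1 and 4560 estimated counts. It was 35.6, 21.5 and 7.86 CPM in dec2WT and 11.0, 7.62 and 11.0 CPM in dec2P384R. Driver control replicate 3 was 104 times the median of the other 8 libraries and 20.2 times the next highest, which was driver control replicate 1 at 5.15 times the median of its other 8. In dec2WT replicate 1 the sum was 3.06 times that median. Each copy was highest in driver control replicate 3, with 483 CPM of Hsp70Ab, 292 CPM of Hsp70Aa, 246 CPM of Hsp70Bb, 122 CPM of Hsp70Bc, 40.0 CPM of Hsp70Bbb and 23.3 CPM of Hsp70Ba. Outside that library Hsp70Ab reached at most 23.1 CPM, Hsp70Bb 19.7 CPM and Hsp70Aa 9.11 CPM, and Hsp70Ba was at 0 in 5 of the 9 libraries. All 3 dec2P384R libraries lay below all 3 driver control libraries in the sum, and among the 8 genes singly in 1, Hsp70Ab, which was at 7.78 CPM or more in the driver control and 2.10 CPM or less in dec2P384R. Of the 11393 genes tested by Nanopore, 4.85% had every dec2P384R library below every driver control library.

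**Figure D2:**
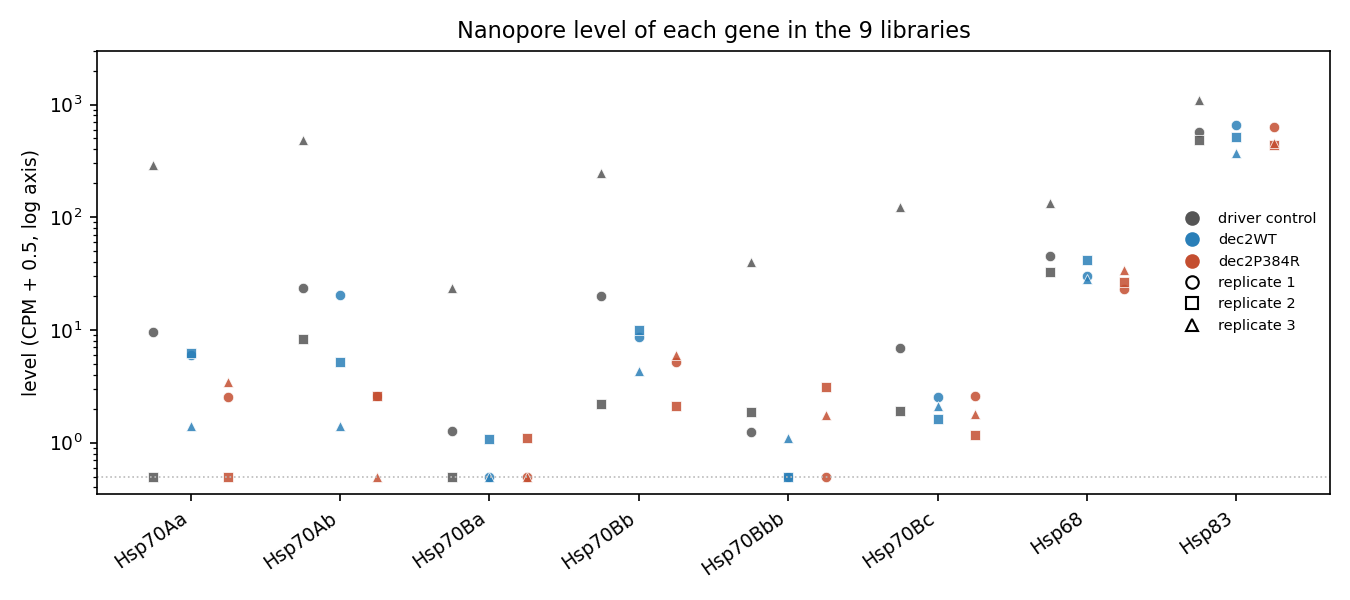
Nanopore level of each gene as CPM + 0.5 on a log axis, with 1 point for each library, colour for genotype and shape for replicate; the dotted line marks 0 CPM. The triangle of driver control replicate 3 lies above all other points for all 8 genes, from 23.3 CPM for Hsp70Ba to 1092 CPM for Hsp83.

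The platforms divided the Hsp70 reads differently among the copies. Hsp70Aa and Hsp70Ab together held 6.67% to 35.5% of the reads of the 6 copies in single Illumina libraries, with a median of 21.5%, and 23.04% to 71.2% in single Nanopore libraries, with a median of 48.3%. Pooled over 9 libraries this was 233 of 1293 reads, or 18.02%, by Illumina and 3272.7 of 5191.2 estimated counts, or 63.0%, by Nanopore. The Nanopore total is mostly driver control replicate 3, in which the share was 64.2%. In Illumina dec2P384R replicate 1, the library with most Hsp70 reads on that platform, it was 14.9% (95% Wilson interval 12.4 to 17.7%, from 692 reads, counting error only). Hsp70Bbb had a median share over single libraries of 21.6% by Illumina and 3.31% by Nanopore. For Hsp70Bb, the medians were 29.7% and 32.9%, and for Hsp70Ba they were 5.41% and 0%, with overlapping ranges on the 2 platforms for all 3 copies. How much of these differences comes from the assignment of reads among near-identical copies was not tested, and the 2 platforms were counted by different tools.

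**Figure D3:**
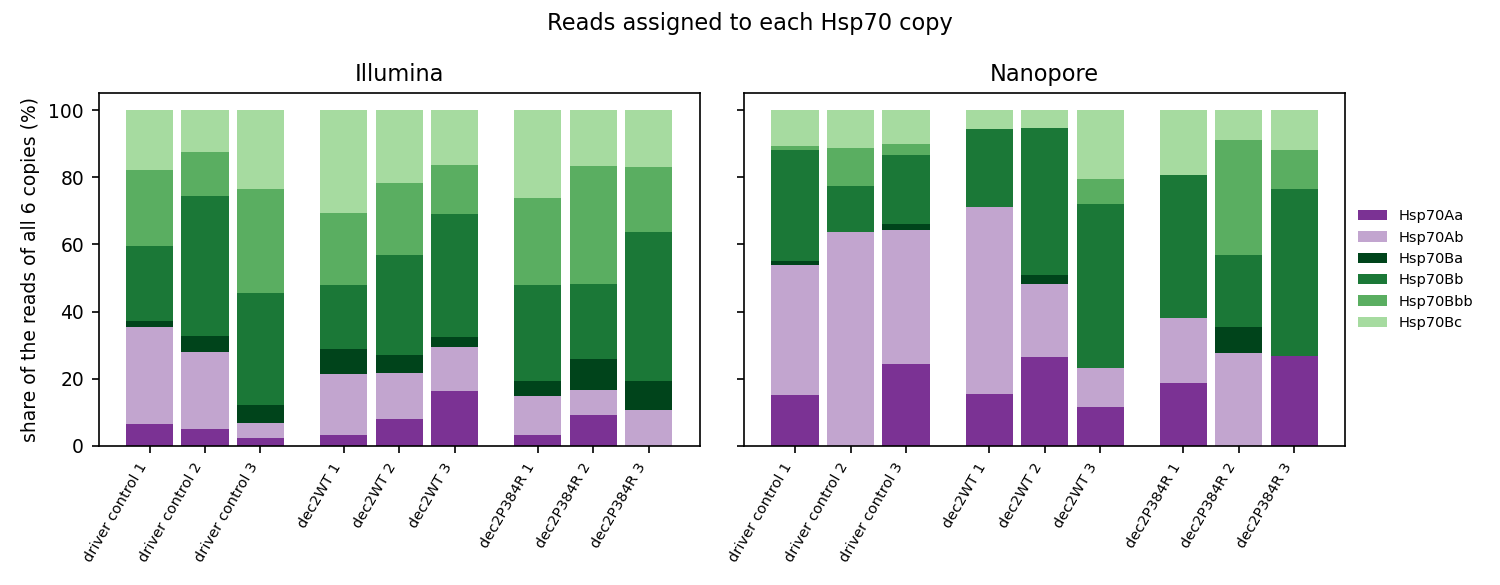
Share in percent of the reads (Illumina) or estimated counts (Nanopore) of the 6 Hsp70 copies that was assigned to each copy, with 1 stacked bar for each library; purple shades are Hsp70Aa and Hsp70Ab, green shades the 4 others. The purple part makes up 6.67% to 35.5% of the Illumina bars and 23.04% to 71.2% of the Nanopore bars.

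The 2 libraries with high Hsp70 differed in what else was high. In Nanopore driver control replicate 3, 4 of 8 sufficiently expressed Hsf targets outside the 8 genes were at least 2-fold above the median of the other 8 libraries. They were Hsp26 at 4.30 times, the Hsp40 DnaJ-1 at 3.92 times, the BAG-domain cochaperone stv at 2.10 times and the small heat shock protein Hsp23 at 2.01 times. In that library 0.512% of 10163 genes were that far above. DnaJ-1 was at 347 CPM there and at 62.8 to 120.5 CPM in the 8 other Nanopore libraries. In Illumina dec2P384R replicate 1, Hsp23 alone of 8 such targets passed 2-fold, at 2.46 times, against 1.20% of 12956 genes. There stv was at 1.86 times, Hsp26 at 1.47 times, and DnaJ-1 at 0.959 times. The sets of 8 differ between the platforms. Hsp22 and Hsp67Ba were high enough by Nanopore alone, and lncRNA:Hsromega and Hsp67Bc by Illumina alone. Hsp67Bc, too low by Nanopore to be counted, was at 3.69 times in driver control replicate 3 and at 1.23 times in Illumina dec2P384R replicate 1. Of the 156 genes at least 2-fold up in the Illumina library and the 52 in the Nanopore library, 3 were shared, which is 1.92% and 5.77% of the respective lists. Named after their values were seen, they were Hsp68, Hsp23 and the sperm dynein gene Sdic2. The same Illumina library shared 2 to 7 such genes with each of the other Nanopore libraries. Sdic2 was also 2-fold up in Nanopore driver control replicates 1 and 2 and in Illumina driver control replicate 1. In Nanopore driver control replicate 1 and dec2WT replicate 1, where Hsp70 was also above its median, Hsp68 was at 1.43 and 0.893 times and Hsp83 at 1.15 and 1.32 times, and 0.482% and 0.621% of genes were 2-fold up.

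The 6 Hsc70 and Hsp110 genes did not share these peaks. Hsc70-4 was at 0.959 times the median of the other 8 in Illumina dec2P384R replicate 1 and at 1.03 times in Nanopore driver control replicate 3, and the other 5 lay between 0.868 and 1.29 times in these libraries. Hsf itself was at 0.938 and 0.724 times. What set these libraries apart was not tested.

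**Figure D4:**
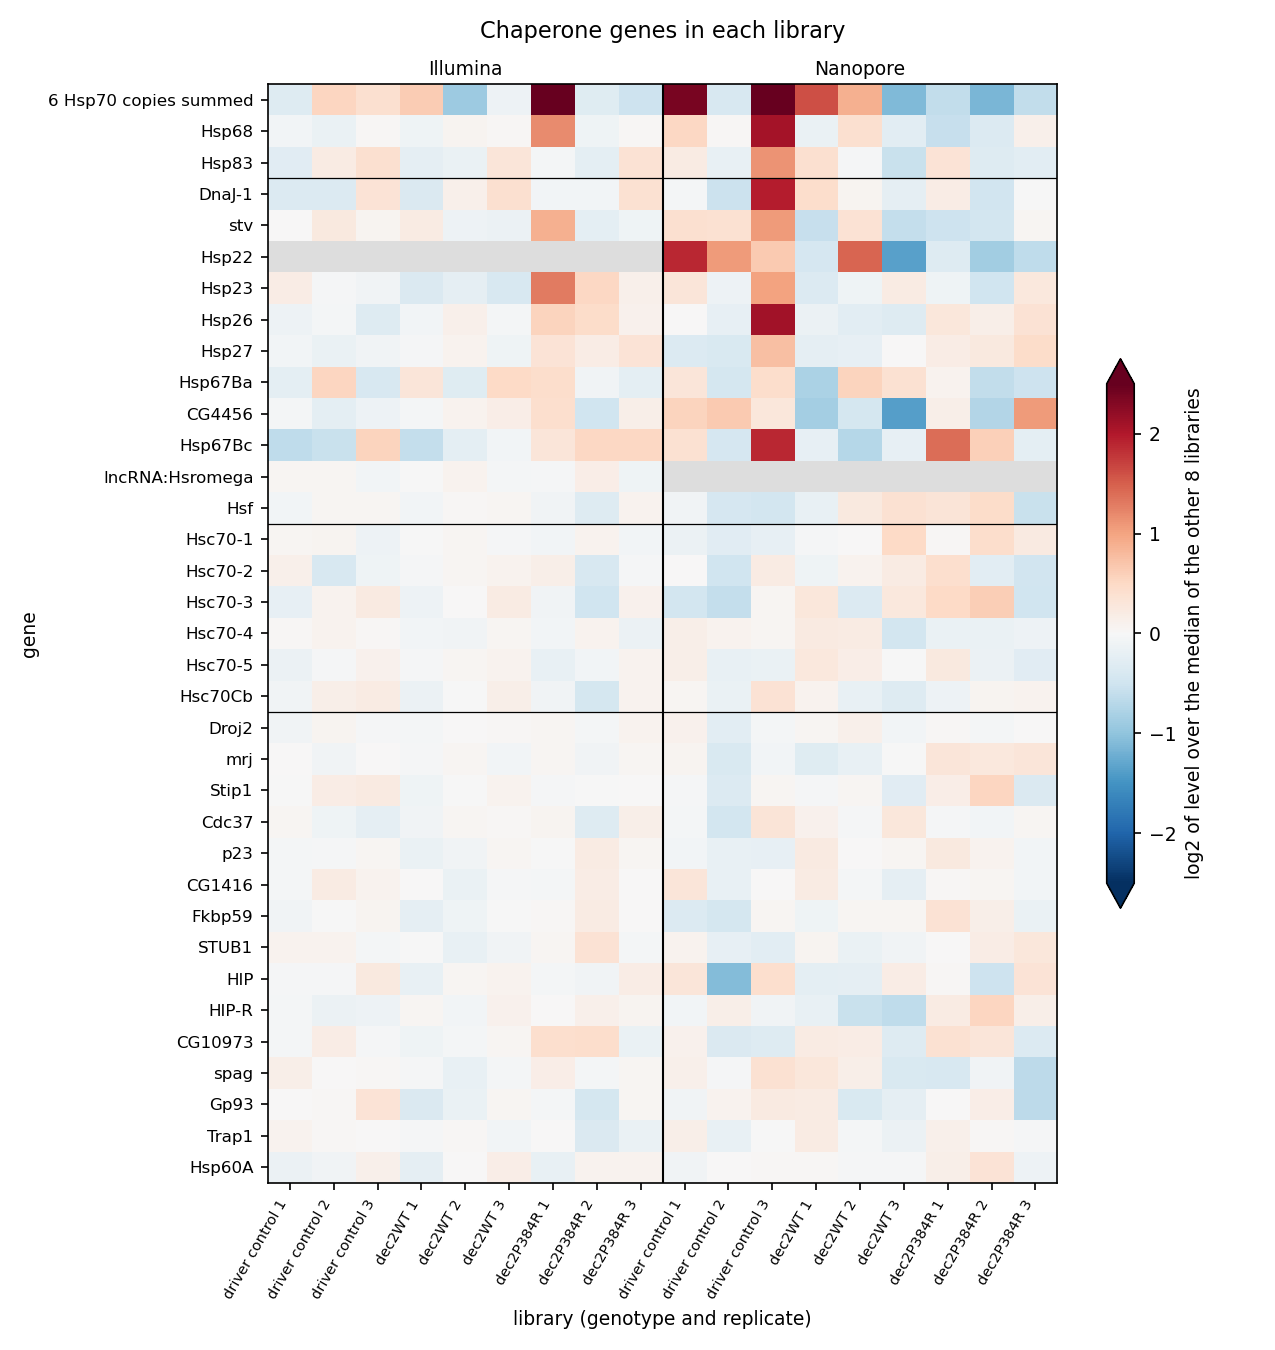
Log2 of the level of each gene in each library over the median of the other 8 libraries of its platform, from blue (lower) to red (higher), with the colour scale ending at 2.5 in both directions and grey where the median was 0 or the gene was not in the table. Blocks from the top are the Hsp70 sum, Hsp68 and Hsp83, then Hsf and its targets, then Hsc70 genes and Hsp110, then cochaperones and other chaperones. Nanopore driver control replicate 3 is red for the Hsp70 sum (104 times), Hsp68 (4.25 times), Hsp83 (2.18 times), DnaJ-1 and Hsp26, and Illumina dec2P384R replicate 1 for the Hsp70 sum (9.64 times), Hsp68 (2.26 times) and Hsp23.

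Whether either transgene changed these genes was asked by comparing genotypes within each platform. By Illumina no member passed the test in any comparison. Of the 8, 3 had levels high enough to be tested (Hsp68, Hsp70Bb and Hsp83), along with the sum, and in none of the 3 comparisons did any have an unadjusted p under 0.05. Over all genes tested, 14.1% had such a p in dec2P384R against the driver control, 11.3% in dec2WT against the driver control and 8.07% in dec2P384R against dec2WT. By edgeR and by DESeq2 on recovered reads 0 members passed as well. Between dec2P384R and the driver control, the difference on the log2(FPKM + 0.5) scale was 0.66 ± 0.65 (SE) for the Hsp70 sum (limma, adjusted p = 0.710), which understates changes of low genes. It was 0.42 ± 0.26 for Hsp68 (adjusted p = 0.513), 0.51 ± 0.51 for Hsp70Bb (adjusted p = 0.713) and −0.05 ± 0.18 for Hsp83 (adjusted p = 0.932). Over all 13418 genes tested, 376 or 2.80% passed at an adjusted p of 0.05. Without dec2P384R replicate 1, the sum was −0.34 (adjusted p = 0.660) and Hsp68 was 0.03, so the direction of the sum turned with that single library. Hsp70Bb was then too low to be tested. On the reads recovered from the FPKM values the sum differed by 1.64 ± 0.71 (edgeR, adjusted p = 0.303).

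In dec2WT against the driver control by Illumina, the Hsp70 sum was −0.19 (limma, adjusted p = 0.979), Hsp68 0.05 (adjusted p = 0.989) and Hsp83 −0.09 (adjusted p = 0.953) on the log2 scale. Over all genes 350 or 2.61% passed. Between dec2P384R and dec2WT the sum was 0.85 ± 0.65 (adjusted p = 0.815), Hsp68 0.37 (adjusted p = 0.788) and Hsp83 0.04 (adjusted p = 0.976), while 105 or 0.783% of all genes passed. Without dec2P384R replicate 1 the last 2 genotypes differed by −0.14 in the sum and −0.02 in Hsp68.

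By Nanopore no member passed either, although the fitted differences were large. Of the 8 genes 5 could be tested (Hsp68, Hsp70Aa, Hsp70Ab, Hsp70Bb and Hsp83), and 4 of these had an unadjusted p under 0.05 in each comparison against the driver control, all with lower fitted levels in the transgenic flies. Over all genes tested, 11.0% had such a p in dec2P384R and 10.1% in dec2WT. Without driver control replicate 3, it was 2 of the 5 genes in dec2P384R (Hsp68 and Hsp70Ab) and 0 in dec2WT. In these fits 10.5% and 8.53% of all genes had such a p. In dec2P384R the log2 fold change against the driver control was −5.54 ± 1.33 for the sum (edgeR's quasi-likelihood test, adjusted p = 0.119), −6.97 ± 1.67 for Hsp70Ab (adjusted p = 0.122) and −1.40 ± 0.42 for Hsp68 (adjusted p = 0.215). It was −0.58 ± 0.29 for Hsp83 (adjusted p = 0.485). Over all 11393 genes tested, 54 or 0.474% passed. Without driver control replicate 3 the value for the sum was −1.99 ± 0.63 (adjusted p = 0.290), that for Hsp70Ab −3.53 ± 1.04 (adjusted p = 0.260), that for Hsp68 −0.56 and that for Hsp83 −0.15. The direction was the same without that library, and the size of the fold fell by far more than 1.5 times. With DESeq2 on the same counts the sum passed at −5.51 (adjusted p = 0.0105), as did Hsp70Ab and Hsp70Bc. Hsp70Bc had 461 estimated counts in driver control replicate 3, 26.5 in replicate 1 and at most 9.42 in the transgenic libraries. Its call is thus no separate support. Over all genes 103 of 12858 passed in that fit, and DESeq2 was not run without driver control replicate 3. The authors' deposited adjusted p-values differ, at 0.136 by DESeq2 for Hsp70Bc and none given for Hsp70Ab. Their log2 fold change for Hsp70Ab was −7.075, near the −6.97 of edgeR.

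In dec2WT against the driver control by Nanopore, the sum was −4.31 ± 1.19 (edgeR, adjusted p = 0.161), Hsp68 −1.15 (adjusted p = 0.307) and Hsp83 −0.52 (adjusted p = 0.586), and 91 or 0.799% of all genes passed. By DESeq2 0 members passed in this comparison. Without driver control replicate 3 the sum was −0.75 ± 0.55 (adjusted p = 0.774), Hsp68 −0.31 and Hsp83 −0.10. Both control comparisons share their control libraries, so 1 high control library lowers both. Between dec2P384R and dec2WT, where that library has no part in the means, the sum was −1.23 ± 1.31 (edgeR, adjusted p = 0.898), Hsp68 −0.26 (adjusted p = 0.947) and Hsp83 −0.05 (adjusted p = 0.986), and 15 or 0.132% of all genes passed. No member had an unadjusted p under 0.05 there, against 7.19% of all genes. In the fit without driver control replicate 3, 1 (Hsp70Ab) had one, against 6.96% of all genes. For dec2P384R against the driver control, the values of the sum were thus 0.66 by Illumina and −5.54 by Nanopore, and −0.34 and −1.99 without the library that stood apart on each platform. Their scales differ, as the Illumina value is of log2(FPKM + 0.5), which understates changes of low genes, and the Nanopore value is of counts. The platforms were fitted separately, and the difference between them was not tested.

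**Figure D5:**
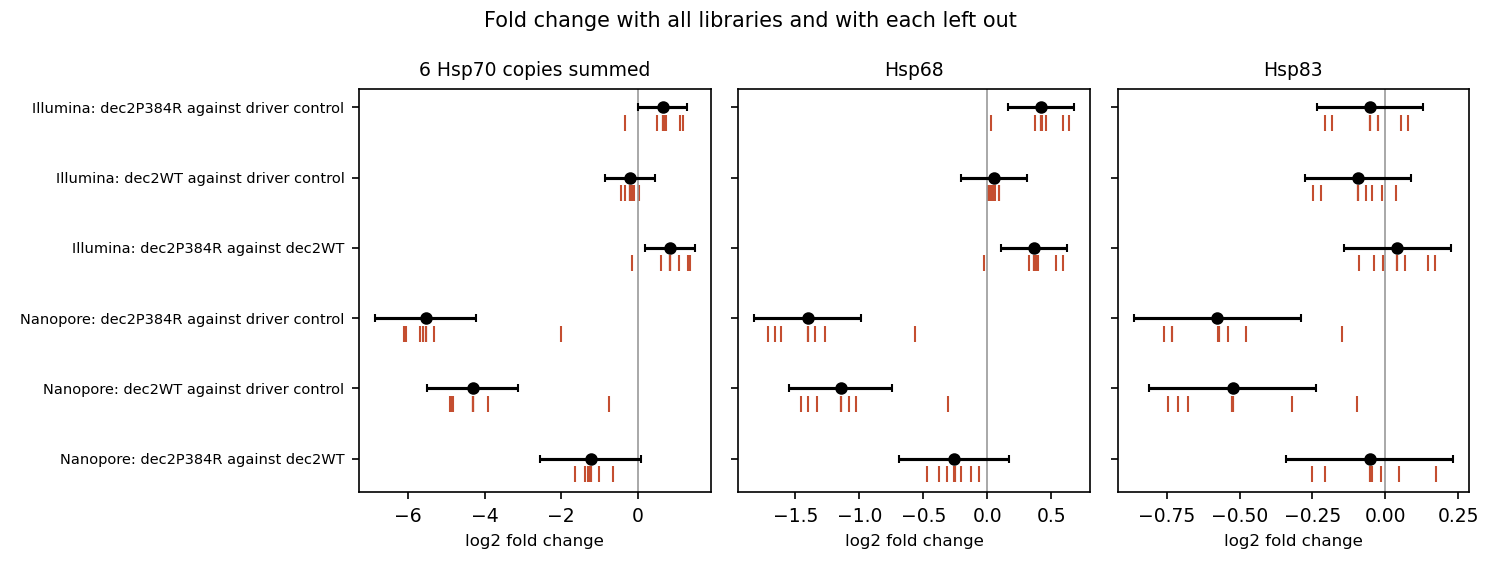
Log2 fold change of the summed Hsp70 copies, Hsp68 and Hsp83 in 6 comparisons, with black points for the fit on all 9 libraries of a platform. Bars show its SE, which for Nanopore was derived from the F statistic, and red ticks show fits that leave out each library in turn. Each panel has its own axis. The tick farthest to the right in the Nanopore comparisons with the driver control is the fit without driver control replicate 3 (−1.99 and −0.75 for the sum), and the tick below 0 at the top left is the Illumina fit without dec2P384R replicate 1 (−0.34).

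The partners of the Hsp70 and Hsp90 machines were described from 3 lists. No gene of the 6 Hsc70 and Hsp110 genes, the 17 cochaperones and related chaperones, or the 11 genes of Hsf and its other targets (10 of 11 tested per platform) passed in any of the 6 comparisons (limma and edgeR, adjusted over all genes). At an unadjusted p under 0.05, 3 of 10 genes of the Hsf list had higher fitted levels in dec2P384R than in the driver control by Illumina (14.1% of all genes in either direction), and 3 had lower ones by Nanopore (11.0%). Against dec2WT, 4 had higher fitted levels in dec2P384R by Illumina (8.07%), and 1 by Nanopore (7.19%). In dec2WT against the driver control it was 0 by Illumina (11.3%) and 5 lower by Nanopore (10.1%). Without Illumina dec2P384R replicate 1, dec2P384R had 2 higher against the driver control (13.3%) and 3 higher against dec2WT (8.06%). In dec2WT against the driver control it was then 1 lower (12.1%). Without Nanopore driver control replicate 3, it was 2 lower and 1 higher in dec2P384R against the driver control (10.5%). In dec2WT against the driver control it was then 2 lower (8.53%), and in dec2P384R against dec2WT 2 higher (6.96%). On all 9 libraries, 0 of the 17 cochaperones had such a p by Illumina, and 2 in each comparison by Nanopore. By Illumina the median log2 fold change of the Hsf list was 0.15 in dec2P384R and 0.04 in dec2WT against the driver control. Between the 2 transgenic genotypes it was 0.13, and the medians of all genes were 0.00 in each comparison. Without dec2P384R replicate 1, the median of the Hsf list was 0.14, 0.04 and 0.07 in the same order. By Nanopore it was −0.53, −0.79 and −0.03. Without driver control replicate 3 it was −0.09, −0.21 and −0.03. In that library 4 of the list's 8 sufficiently expressed targets were at least 2-fold up, as was the sparser Hsp67Bc, at 3.69 times. The cochaperone list had medians of 0.04, −0.07 and 0.04 by Illumina and −0.03, −0.06 and 0.00 by Nanopore, and those of the Hsc70 list lay between −0.10 and 0.08. Hsp26, a small heat shock protein, came nearest the threshold by Illumina, with 0.49 ± 0.13 in dec2P384R against the driver control (limma, adjusted p = 0.0901). With the replicate number as a block, which treats same-numbered libraries as pairs, Hsp26 passed at 0.49 ± 0.10 (limma, adjusted p = 0.0315). It was the 1 gene of the 3 lists to do so. Without dec2P384R replicate 1 it was at 0.40 (adjusted p = 0.220).

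Among single partners, Hsf was at −0.09 ± 0.11 by Illumina (limma, adjusted p = 0.748) and 0.27 ± 0.20 by Nanopore (edgeR, adjusted p = 0.662) in dec2P384R against the driver control. Hsc70-4 was at −0.07 ± 0.12 (adjusted p = 0.860) and −0.26 ± 0.18 (adjusted p = 0.635). DnaJ-1, the Hsp40 that drives the Hsp70 ATPase, was at 0.20 ± 0.21 (adjusted p = 0.731) and −1.03 ± 0.48 (adjusted p = 0.454). The nucleotide exchange cofactor stv was at 0.11 ± 0.23 (adjusted p = 0.883) and −0.81 ± 0.24 (adjusted p = 0.215). Both genes were also high in Nanopore driver control replicate 3, and without it DnaJ-1 was at 0.09 (edgeR, adjusted p = 0.927) and stv at −0.56 (adjusted p = 0.448). Without Illumina dec2P384R replicate 1, stv was at −0.23 (limma, adjusted p = 0.493). Hsp22, another small heat shock protein, was listed at 0 FPKM in all 9 Illumina libraries but at 36.1 to 263 CPM by Nanopore, and all 2034 bases of its annotated span lie inside that of CG4456, also known as Hsp67Bb. The noncoding heat shock gene lncRNA:Hsromega was steady at 6.61 to 7.88 FPKM.

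Candidates for likeness were 5461 tested genes with a mean of at least 2 FPKM. The members, genes known only by a CG or CR number, and noncoding genes were left out. For each inducible gene, the genes whose Illumina pattern was most like it were found among these candidates. The measure was Pearson's r of log2(FPKM + 0.5) over 9 libraries that share 1 scaling. For the Hsp70 sum the most alike were stv (r = 0.962), the tetraspanin gene Tsp42Ed (r = 0.962) and l(2)efl (r = 0.954), which encodes a small heat shock protein of the alpha-crystallin family. The level of l(2)efl was 820 FPKM in dec2P384R replicate 1 and 159 to 221 FPKM in the 8 others. In Nanopore driver control replicate 3 it was at 0.671 times the median of the other 8. For Hsp68 they were Der-2 (r = 0.959), Spn88Eb (r = 0.959) and NimC4 (r = 0.956). NimC4, which encodes a receptor for cell engulfment, was at 18.5 FPKM in dec2P384R replicate 1 and at most 0.689 FPKM elsewhere, and Spn88Eb, a serpin gene, was at 32.2 FPKM against 8.38 to 12.3 FPKM. For Hsp83 they were robo1 (r = 0.941), Ets97D (r = 0.909) and P58IPK (r = 0.908), a J-domain protein of the endoplasmic reticulum, at 47.5 to 48.7 FPKM in the third replicates and 39.2 to 43.1 FPKM in the others. Likeness to the Hsp70 sum and Hsp68 rests on 1 library, and these values are descriptions.

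Several genes lie next to the members or overlap them. CG3281, which overlaps the end of Hsp70Ab by 27 bases on the other strand, stayed between 3.81 and 5.52 FPKM, and CG31211, 124 bases from Hsp70Aa, between 26.9 and 33.3 FPKM. CG5608, 154 bases from Hsp70Ba, lay between 4.64 and 5.99 FPKM, and Octbeta3R, 108 bases from Hsp70Bc, between 0.785 and 1.38 FPKM. CG14966 overlaps Hsp83 by 15 bases and stood at 11.5 to 18.2 FPKM, far below Hsp83 itself. The counting is not stated to use strand, so reads in these overlaps cannot be assigned to a strand.

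The authors' deposited tables of Illumina calls list none of the 8 genes in any of their 3 comparisons. The authors' deposited table for Nanopore gives, for dec2P384R against the driver control, a log2 fold change of −4.58 with an adjusted p of 0.235 for Hsp70Bb and −5.14 with 0.136 for Hsp70Bc. In the same authors' deposited table Hsp68 is at −1.40 with an adjusted p of 0.616 and Hsp83 at −0.57 with 0.557, and no adjusted p is given for Hsp70Aa, Hsp70Ab, Hsp70Ba or Hsp70Bbb.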

How the data were processed

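Per the labels, polyA-selected RNA was read as 150 nt pairs on the Illumina platform and as direct cDNA on the Nanopore platform. Per the submitters' processing notes, the tools were Salmon, minimap2, DESeq2, HISAT2 and featureCounts 1.5.0-p3, with no roles given. The genome build and strand setting are not given in the sources used here. The Illumina table deposited by the authors holds FPKM values. With constants from the whole-number counts that the authors deposited for some genes, 100% of FPKM values gave whole reads within 1e-06. The Nanopore values deposited by the authors are estimated counts, of which 55.1% are not whole. They were rounded for testing. Log2 fold changes and adjusted p-values of the authors' deposited comparison tables are quoted as such. In the name of 1 Illumina column, 2 digits of the mutation are swapped, and that column was taken as dec2P384R replicate 2, the sole sample it can match. Another 36 columns of values per library were not used.

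On the log2(FPKM + 0.5) scale, Illumina values entered limma 3.58.1 with a trended empirical Bayes step, keeping genes that reached 0.5 FPKM in 3 or more of the 9 libraries. Nanopore counts were tested with edgeR 4.0.16 (TMM, filterByExpr, quasi-likelihood F-test). For edgeR, the value after ± is the absolute log2 fold change divided by the square root of F, not a fitted standard error. R was 4.3.3. All 9 libraries of a platform entered 1 model by genotype. Two-sided p-values were adjusted over all genes tested by the Benjamini-Hochberg method, with a threshold of 0.05. Both fits were tested on simulated data with a fixed spread between libraries and changes in better expressed genes alone. No simulated library stood apart, so that test does not bear on the sparse Hsp70 genes, where 1 library did. The 6 Hsp70 rows were also replaced by their sum. Ratios to the median of the other 8 libraries were computed for all 18 libraries, over genes with a median of at least 0.5 FPKM or 5 CPM. Alternatives were other pseudocounts, no filter, a replicate block, count tests on recovered reads, DESeq2 1.42.0, the 6 compared libraries alone, and leaving out each library.

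Same-numbered Illumina libraries of dec2P384R and the driver control deviated together more than libraries of different numbers, though weakly and without a test. The correlations of deviations from the group means were 0.256, 0.116 and 0.251. Between dec2P384R and dec2WT by Illumina they were 0.236, 0.04 and 0.209. These also exceeded the highest with another number, though barely for replicate 2 (0.0334). In dec2WT against the driver control by Illumina, only replicate 3 did so, at 0.18. By Nanopore only replicate 2 did so in dec2P384R against the driver control, at 0.0844. In dec2WT against the driver control it was only replicate 3 (0.165), and between the transgenic genotypes only replicate 1 (0.165). Any pairing is thus read from the data and is uncertain, since the labels do not say that a number marks a shared batch. All 8 genes are described. Others were named from fixed lists of partners, as the 3 genes most alike in pattern, or as neighbours. The genes and lists were chosen with earlier results of these data known. In the lists, Hsp67Bb and Hsp90 cochaperone Hop were found under CG4456 and Stip1 by RefSeq synonyms. No sequences were used here.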

Additional observations from a re-analysis of the deposited data

How the results depend on the processing

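The Hsp70 copies share reads and, by Illumina, mostly have under 30 reads per library, so single copies are imprecise. Over the sum and the members tested on all 9 libraries, which leaves out Hsp70Bc, 152 values came from alternatives other than leaving out a library, and 150 left the direction and side of the threshold as they were. The 2 others were Hsp70Ab (−7.08, adjusted p = 0.011) and the sum (−5.51, adjusted p = 0.0105) by DESeq2 on the Nanopore counts of dec2P384R against the driver control. Hsp70Bc, which DESeq2 also tested, passed too (adjusted p = 0.0407), making 2 genes, while 103 of 12858 genes passed in that fit. The counts of Hsp70Bc come mostly from driver control replicate 3, so its call is no separate support. DESeq2 gave no adjusted p for 6 Nanopore and 3 Illumina member values.

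Of 261 values of these genes and the sum without 1 library, 245 were alike, 12 turned direction and 4 passed the threshold, namely Hsp70Bb and the sum in both Nanopore comparisons with the driver control. The Hsp70 sum ranged from −0.34 to 1.19 (dec2P384R against the driver control), −0.42 to 0.046 (dec2WT against the driver control) and −0.14 to 1.38 (dec2P384R against dec2WT) by Illumina. By Nanopore it ranged from −6.10 to −1.99, −4.90 to −0.75 and −1.63 to −0.64. The fit without Nanopore driver control replicate 2 keeps control replicates 1 and 3, at 59.7 and 1207 CPM of the sum. Replicate 2 held 12.2 CPM. In that fit Hsp70Bb passed in dec2P384R (−5.22, edgeR, adjusted p = 0.0389), the 1 member to do so, as did the sum (−6.10, adjusted p = 0.0253). Over all genes 35 of 11550 passed there. In dec2WT 2 members passed in that fit, beside 60 of 11550 genes. They were Hsp70Bb (−4.24, edgeR, adjusted p = 0.0419) and Hsp70Bc (adjusted p = 0.0404), and the sum passed too (−4.88, adjusted p = 0.0429). Hsp70Bc passed the filter of that fit only through driver control replicates 1 and 3, at 26.5 and 461 counts. It had at most 9.42 counts in the transgenic libraries, so its call is no separate support. In the other fits without 1 library 0 members passed, so the counts ranged from 0 to 1 and from 0 to 2. Hsp83 ranged from −0.21 to 0.077, −0.25 to 0.036 and −0.090 to 0.17 by Illumina and from −0.25 to 0.17 in the last comparison by Nanopore. Hsp68 ranged from −0.023 to 0.59 between dec2P384R and dec2WT by Illumina. The cause was not tested.

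For the lists of partners, the block and leaving out the library that stood apart were chosen after seeing the data. Without Illumina dec2P384R replicate 1, stv turned to −0.23 against the driver control and −0.12 against dec2WT, and Hsc70-4 to 0.0049 against dec2WT. Without Nanopore driver control replicate 3, DnaJ-1 turned to 0.092 in dec2P384R and 0.31 in dec2WT, and Hsp26 to 0.20 in dec2P384R.

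With the replicate block no member call changed, and Hsp26 passed in dec2P384R against the driver control by Illumina (0.49, adjusted p = 0.0315). Blocked, the sum was 0.66 (adjusted p = 0.604) by Illumina and −4.24 (adjusted p = 0.318) by Nanopore in dec2P384R against the driver control, and −2.55 (adjusted p = 0.574) in dec2WT by Nanopore. Calls over all genes went from 376, 350 and 105 to 504, 473 and 130 by Illumina and from 54, 91 and 15 to 39, 68 and 12 by Nanopore. Over the other alternatives they ranged from 179 to 564, 182 to 514 and 56 to 179, and from 27 to 103, 49 to 118 and 10 to 39; the highest of each came from DESeq2, the lowest from leaving out a library.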
